A study of Mus musculus with 5 samples.

Results

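Monocytes of the fetal mouse lung were examined in single-cell RNA sequencing libraries of dissociated lungs from 5 embryos at E18.5, late in gestation. Embryos Het1 and Het2 were Zswim8+/- and embryos KO1, KO2 and KO3 were Zswim8-/-, with 1 library per embryo and no wild-type embryo among the groups. Monocytes were selected on their own transcripts. A barcode with at least 500 detected genes and at most 15% mitochondrial UMIs (unique molecular identifiers, counted transcripts) was kept, and a kept barcode was called a monocyte if it held UMIs of at least 3 of Plac8, Ms4a4c, Ly6c2, Ifitm6 and Ccr2. It could hold UMIs of at most 1 gene in each of 3 sets that mark C1q-positive macrophages (C1qa, C1qb, C1qc, Ms4a7), alveolar macrophages (Ear2, Plet1, Olr1) and neutrophils (Asprv1, Il1r2, Csf3r, Stfa2), no UMI of Cd79a, Epcam, Cdh5 or Pdgfra, and not both Mki67 and Top2a. This chose 945 of 19491 kept barcodes, out of 50355 barcodes in all: 233 in Het1, 209 in Het2, 83 in KO1, 233 in KO2 and 187 in KO3.

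Monocytes are circulating myeloid cells that enter tissues and can become macrophages or dendritic cells. Classical monocytes carry Ly6C and CCR2 and leave the blood through chemokine receptors and adhesion molecules, whereas non-classical monocytes carry CX3CR1 and depend on NR4A1. In the fetal lung, monocytes are the precursors of alveolar macrophages, and type I interferon induces a large antiviral program in them through transcription factors that the interferon receptor activates. ZSWIM8 is the substrate receptor of a Cullin-RING ubiquitin ligase that degrades Argonaute bound to certain microRNAs when a trigger RNA pairs extensively with the microRNA.

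The members carried monocyte transcripts that the choice did not use. Lyz2, which encodes lysozyme, was detected in 97.6% to 99.6% of the members of each library, Csf1r, the receptor for macrophage colony-stimulating factor, in 85.5% to 92.7%, and F13a1, a coagulation factor subunit of classical monocytes, in 77.1% to 86.6%. In the other kept barcodes the same genes were detected in 48.5% to 71.7%, 30.1% to 44.4% and 29.6% to 42.2%. In barcodes with more than 50% haemoglobin UMIs, which measure free RNA, the shares were 11.4% to 25.05% for Lyz2 and at most 2.43% for Csf1r, at a median of 2328 to 2621.5 UMIs against 8000 to 9580 UMIs per monocyte. Cd79a, Epcam, Cdh5 and Pdgfra were at 0 by the rule. Cd3e and Ly6g, which the rule did not use, were at 0 in Het1, Het2, KO1 and KO2, and both had UMIs in KO3. Other markers of these lineages were present. In Het1, Het2, KO1, KO2 and KO3, 7 neutrophil markers together held 292, 317, 135, 296 and 295 UMIs. In the same order, 3 T and NK cell markers held 5, 12, 2, 2 and 24 UMIs. A set of 5 dendritic markers held 614, 1091, 698, 268 and 595 UMIs.

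At the edge of the rule, members with exactly 3 of the 5 genes numbered 33, 43, 23, 56 and 36 in Het1, Het2, KO1, KO2 and KO3, and barcodes that met every other condition with only 2 genes numbered 65, 69, 44, 87 and 66. Members with all 5 genes made up 59.7% and 54.5% of the Het members and 50.6%, 29.2% and 43.3% of the KO members. The rule genes themselves differed between libraries. Ms4a4c read 444 and 367 normalized CPM (counts in each 1e6 UMIs of the summed members, scaled by TMM) in the Het libraries, against 345, 136 and 193 CPM in the KO libraries, given here and below in the order of their numbers. Plac8 stood at 4871 and 4628 CPM against 3455, 2820 and 3094 CPM. These values describe the selection. The rule genes stayed among the genes fitted below, but their results in those fits are not read as tests.

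Several facts about the libraries precede the results. The summed members held 2099036, 1896470, 835518, 2037775 and 1845147 UMIs, so KO1 was the shallowest. No member barcode was shared between libraries, while 17 to 44 barcodes of all kinds were shared between any 2 of them. KO1 and KO2 were female by Xist, and the others were male. Zswim8 itself read 27.3 and 26.6 CPM in Het monocytes and 19.7, 32.3 and 31.1 CPM in KO monocytes. The KO values lie on both sides of the Het values (log2 fold change 0.10 ± 0.22 SE, adjusted p = 0.971, edgeR quasi-likelihood test), so the transcript does not check the genotype labels, and every direction below rests on those labels. Summed haemoglobin and red-cell transcripts came to 37476 and 15713 CPM in Het1 and Het2 and 8068, 14601 and 17341 CPM in KO1, KO2 and KO3, before TMM scaling. In addition, 15, 14, 8, 6 and 9 members held many UMIs of lymphoid, basophil, dendritic, stromal, epithelial or platelet genes.

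Monocytes took close mean shares of the kept barcodes in both genotypes, with a wide spread among KO embryos. They made up 4.83% of kept barcodes in Het1 and 4.97% in Het2. In KO1, KO2 and KO3 the shares were 2.65%, 7.01% and 4.66%, so the KO libraries lie below, above and just under the Het pair. The means were 4.90% ± 0.0972 (SD, n = 2) and 4.77% ± 2.18 (SD, n = 3), a difference of -0.129 percentage points (exact permutation test over libraries, two-sided, p = 0.80; 2 against 3 libraries cannot go below p = 0.10). The exact 95% binomial intervals of KO1 (2.12% to 3.28%) and KO2 (6.16% to 7.93%) do not overlap each other or the Het shares, though such intervals cover counting error only.

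Other myeloid classes were counted in the same libraries. C1q macrophages, chosen by UMIs of at least 3 of C1qa, C1qb, C1qc and Ms4a7 and at most 2 of the monocyte genes, made up 3.40% and 3.64% of kept Het barcodes and 8.21%, 8.54% and 8.05% of kept KO barcodes, with no overlap (exact permutation p = 0.10, the smallest possible). Neutrophils, chosen by at least 3 of Asprv1, Il1r2, Csf3r and Stfa2, made up 5.44% and 6.90% against 3.96%, 5.60% and 4.24%, where KO2 lies within the Het range.

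**Figure D1:**
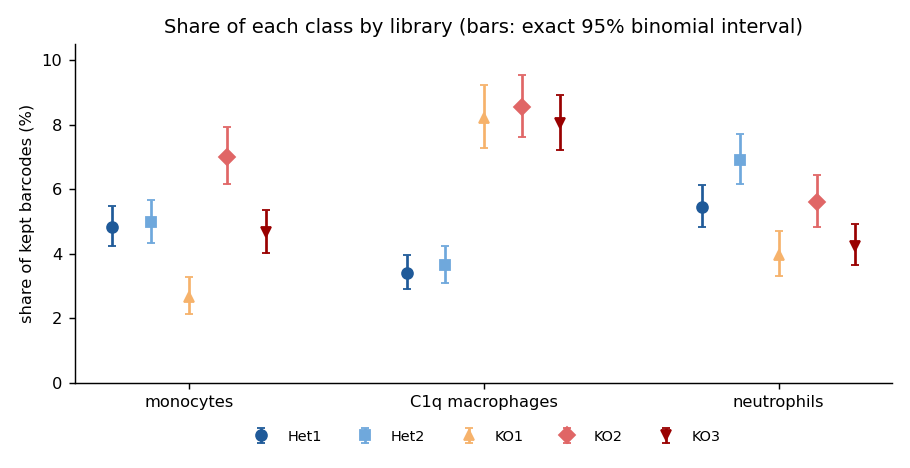
Share of kept barcodes (y axis, %) that were monocytes, C1q macrophages or neutrophils (x axis) in each of the 5 libraries, with exact 95% binomial intervals as bars. The KO monocyte shares run from 2.65% to 7.01% around the Het pair, while all 3 KO macrophage shares exceed 8%.

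Gene expression was compared between Het and KO monocytes by summing the UMIs of the members of each library and testing 8682 genes with edgeR's quasi-likelihood test. One gene passed at a Benjamini-Hochberg adjusted p under 0.05, which is 0.0115% of the genes tested, and 665 genes had an unadjusted p under 0.05. That gene was Ccl5 (chr11:83525778-83530518, mm10), which encodes a chemokine made mainly by T and NK cells. Its 207 UMIs in Het1 and 235 in Het2 stood against 2, 1 and 4 UMIs in KO1, KO2 and KO3 (log2 fold change -6.18 ± 0.29 SE, adjusted p = 6.6e-06). A single barcode held 97.6% of the Ccl5 UMIs in Het1 and 98.3% in Het2. With each gene's highest barcode left out, an alternative chosen after seeing the data, Ccl5 fell below the low-count filter.

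The count of calls moved with the libraries and members that entered. It was 109 without KO1, 67 without Het1, 5 without Het2, 1 without KO2 and 6 without KO3. The 109 calls include the rule genes Ms4a4c, Ly6c2 and Plac8, which the selection used. DESeq2 called 9 genes and the model with sex as a covariate called 1. After the 52 members with UMIs of other cell types were left out, an alternative chosen after seeing the data, 6 of 8293 genes (0.0724%) passed, all of them lower in KO, and they are named under their gene groups below.

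Interferon-stimulated genes had lower values in KO than in Het monocytes throughout the list. Of 36 genes on the list, 33 could be tested, and all 33 had a lower mean log2 level in KO than in Het monocytes. None passed the test over all genes. The median log2 fold change was -0.95, against 0.01 over all genes tested, with a range from -2.03 (Ifit1) to -0.44 (Cmpk2). For 15 of the 33, or 45.5%, every KO library lay below both Het libraries, against 12.8% of all genes tested that were lower in this way and 11.7% that were higher in this way. This list, like those below, and the members were chosen with earlier results of these data known. Such shares therefore describe the lists and are not tests. The rule genes Ms4a4c and Ly6c2 also follow the interferon order.

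Slfn5, a Schlafen family member induced by type I interferon, read 530.2 and 512 CPM in the Het monocytes against 351, 183 and 176 CPM in the KO monocytes. All 3 KO libraries were below the Het pair, and KO2 and KO3 lay lower than KO1 (log2 fold change -1.18 ± 0.24 SE, adjusted p = 0.236, edgeR quasi-likelihood test). Ifi204 (chr1, a member of the DNA-sensing Ifi200 family) showed the same order, at 530.2 and 495 CPM against 354, 261 and 243 CPM (-0.86 ± 0.15, adjusted p = 0.215, edgeR). Ddx58, which encodes the cytosolic RNA sensor RIG-I, read 73.0 and 76.6 CPM against 48.1, 33.3 and 33.2 CPM (-1.03 ± 0.17, adjusted p = 0.204, edgeR). With each gene's highest barcode left out, Ddx58 passed the test at -1.14. Ifi27l2a, the most abundant gene of the list, read 2817 and 1963 CPM against 2027, 1067 and 1248 CPM, so KO1 lay between the Het libraries.

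KO1 separated from KO2 and KO3 in Isg15, Irf7 and Rsad2, which were chosen after their values were seen. Isg15, a ubiquitin-like modifier, stood at 360.4 and 328 CPM in the Het libraries, at 361 CPM in KO1, and at 71.0 and 102 CPM in KO2 and KO3. Irf7, the transcription factor that amplifies interferon production, stood at 266 and 246 CPM, then 291 CPM in KO1 and 84.9 and 103 CPM in KO2 and KO3. Rsad2, which encodes the antiviral enzyme viperin, stood at 80.4 and 62.6 CPM, then 134 CPM in KO1 and 17.4 and 19.5 CPM in KO2 and KO3. In these 3 genes KO1 was at or above the Het level and the other KO libraries were far below it.

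Counted over the list, KO2 and KO3 lay below both Het libraries in 33 of 33 genes, whereas KO1 lay above both in 9, between them in 9 and below both in 15. When KO1 was left out, 28 of the 33 genes passed the test, all lower in KO, against 1.26% of all genes lower in KO in that fit, and the median log2 fold change of the list became -1.43. Slfn5 then reached -1.54, Zbp1, a sensor of Z-form nucleic acid, -1.78, Isg15 -1.996 and Ifit2, an RNA-binding antiviral protein, -4.54. With 2 libraries in each group, that fit says nothing about KO1 and rests on 2 KO embryos of different sex.

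**Figure D2:**
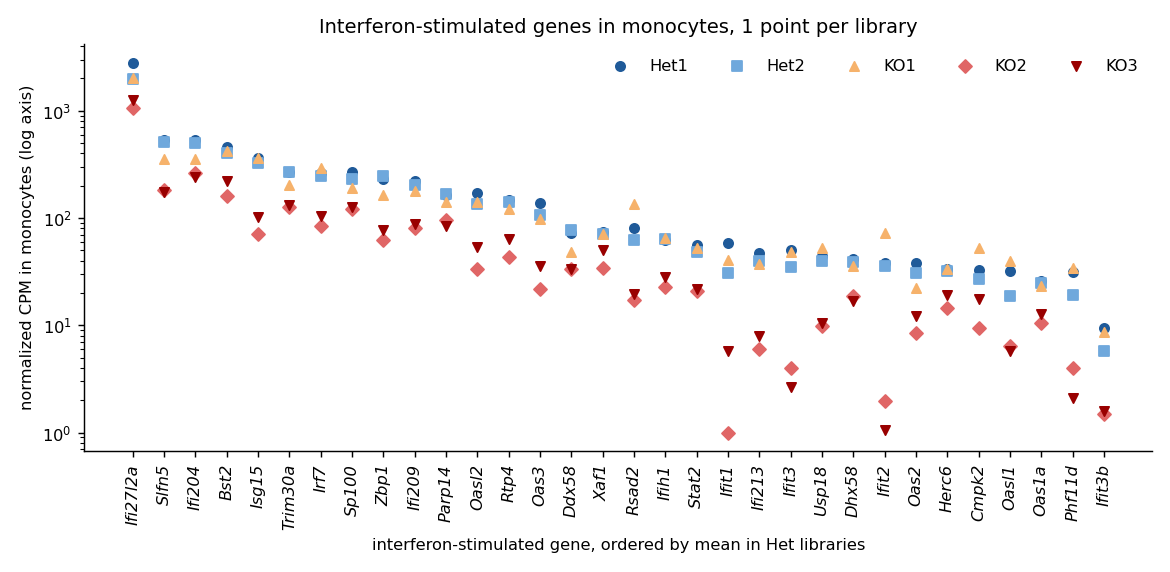
Normalized CPM (log y axis) of 32 of the 33 tested interferon-stimulated genes (x axis) in monocytes, with 1 point per library. KO2 and KO3 lie below both Het libraries for all 32 genes shown, and KO1 lies below both for 14 of them.

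The promoters of these genes were inspected for the interferon-stimulated response element, the site bound by interferon-activated transcription factors. The core GAAANNGAAA was the one motif searched, on both strands, in RefSeq windows from 250 bases before to 50 bases after each gene start (GRCm38.p6). Of 25 list genes with an entry, 14 (56.0%) held a match, against 1079 of 27025 genes (3.99%) in the whole table. The list was chosen as interferon-stimulated genes, so this share describes the list and does not bear on the difference between Het and KO. A match is a run of letters and not a measured binding site. The stretches below hold, in capitals, 1 match of each of 4 genes. The searched windows of Isg15, Bst2 and Ifit3 hold 3, 2 and 2 matches, of which the others are left in lower case where they fall inside the stretch. Isg15 and Rsad2 were described above. Bst2 read 455 and 403 CPM in Het monocytes against 420.3, 161 and 221 CPM in KO monocytes, and Ifit3, an antiviral protein that binds Ifit1, read 50.6 and 34.9 CPM against 48.1, 3.97 and 2.64 CPM, with KO1 between the Het libraries for both. Each is 60 bases long, is printed on the gene's own strand and lies upstream of its start, at chr4:156200862-156200921 (minus strand) for Isg15, chr12:26456538-26456597 (minus) for Rsad2, chr8:71537568-71537627 (minus) for Bst2, which encodes the virus-tethering protein tetherin, and chr19:34583348-34583407 (plus) for Ifit3.
Isg15: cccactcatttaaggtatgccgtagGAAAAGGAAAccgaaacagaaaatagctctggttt
Rsad2: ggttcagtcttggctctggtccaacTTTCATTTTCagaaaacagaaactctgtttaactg
Bst2: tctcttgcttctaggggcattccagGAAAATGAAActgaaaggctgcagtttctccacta
Ifit3: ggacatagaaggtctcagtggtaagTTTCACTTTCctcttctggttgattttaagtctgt

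The same split appeared cell by cell. Each member with at least 4000 UMIs was thinned to 4000 UMIs, so that detection did not depend on depth, and the interferon genes with a UMI were counted. The median member expressed 11 of them in Het1, 11 in Het2 and 11 in KO1, but 5 in KO2 and 5 in KO3. The lower quartile was 8, 8 and then 3, 3 and 3. KO1 thus had the median of the Het libraries and the lower quartile of the other KO libraries, with 58.4% of its members at 10 or more interferon genes, against 65.8% and 64.2% in Het1 and Het2 and 10.9% and 18.6% in KO2 and KO3.

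The share of thinned members with at least 3 interferon genes was 96.5% (220 of 228) and 92.0% (185 of 201) in Het1 and Het2. It was 83.1% (64 of 77), 80.8% (185 of 229) and 77.6% (142 of 183) in KO1, KO2 and KO3, so the groups did not overlap. The means were 94.3% ± 3.15 (SD, n = 2) and 80.5% ± 2.77 (SD, n = 3), a difference of -13.8 percentage points (exact permutation p = 0.10, the smallest this design allows; 0.40 after Benjamini-Hochberg adjustment over 4 subsets). Without thinning, the means were 98.2% and 94.2%, and 0.288% and 0.119% in haemoglobin-rich barcodes.

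The number of interferon genes went with the number of rule genes a member held. The 2 are not independent, since Ms4a4c and Ly6c2 are rule genes whose library levels follow the interferon order, so these values are a description of the members chosen. In KO1, the 20 thinned members with exactly 3 rule genes expressed a median of 2 interferon genes, the 17 with 4 rule genes 11 and the 40 with all 5 rule genes 14.5. The corresponding medians for 3, 4 and 5 rule genes were 4, 11.5 and 12 in Het1 and 7, 11 and 12 in Het2. In KO2 they were 4, 5 and 5, and in KO3 2.5, 6 and 6.

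The values were also taken with the rule tightened to at least 4 of the 5 genes, a choice that uses the same rule genes. All 57 thinned members of KO1, 100%, expressed at least 3 interferon genes (exact 95% binomial interval 93.7% to 100%), against 197 of 199 and 162 of 163 members (99.4%) in the Het libraries and 84.6% and 83.9% in KO2 and KO3. In sums of these stricter members, all 3 KO libraries lay below both Het libraries for 7 of the 33 genes (Ddx58, Ifi204, Slfn5, Trim30a, Sp100, Zbp1 and Oas2), or for 9.86% of all genes, and KO2 and KO3 for 33 of 33. KO1 was at or above the lower Het library for 26. Isg15, for example, read 408 and 396 CPM in Het1 and Het2 without TMM scaling, 522 CPM in KO1, and 82.9 and 123 CPM in KO2 and KO3.

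**Figure D3:**
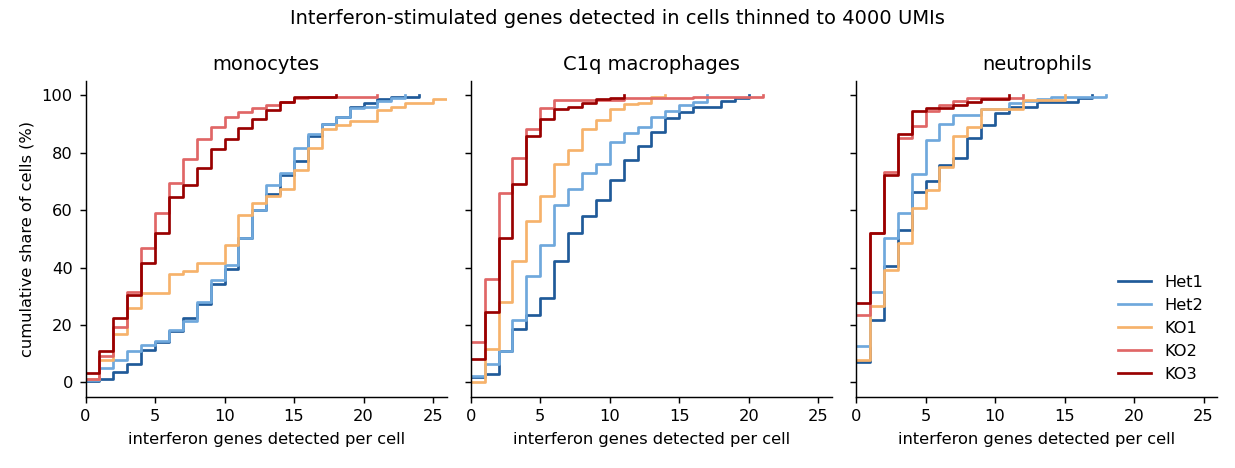
Cumulative share of cells (y axis, %) by the number of interferon-stimulated genes detected after thinning to 4000 UMIs (x axis), in monocytes, C1q macrophages and neutrophils, with 1 line per library. In monocytes KO1 shares a lower quartile of 3 genes with KO2 and KO3 and a median of 11 genes with the Het libraries.

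The interferon receptor genes did not share this pattern. Ifnar1 and Ifnar2, the chains of the type I receptor, read 59.6 and 62.0 CPM against 60.4, 56.6 and 71.2 CPM, and 139 and 125 CPM against 132, 133 and 139 CPM, with full overlap. Ifngr1, a chain of the type II receptor, read 396 and 399 CPM against 371, 516 and 520.4 CPM, with KO2 and KO3 high (log2 fold change 0.25 ± 0.15 SE, adjusted p = 0.760, edgeR).

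No gene of the classical monocyte program passed the test. Of 19 tested, 14 had a negative and 5 a positive log2 fold change and the median was -0.10. Without overlap, 4 (21.1%) were lower and 1 (5.26%) higher, against 12.8% and 11.7% of all genes tested. Lyz2 read 17007 and 13434 CPM against 14427, 13842 and 14401 CPM, with all KO values inside the Het range. S100a6, Lgals3 and S100a4, small calcium- and sugar-binding proteins, had log2 fold changes of -0.18, -0.10 and 0.00, and none of them passed.

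Non-classical monocyte genes had lower values in KO monocytes, none of which passed. Of 19 tested, 18 had a negative log2 fold change, with a median of -0.29, and 8 (42.1%) were lower without overlap, against 12.8% of all genes tested. Nr4a1, the transcription factor on which these cells depend, did not separate the groups, at 710 and 714 CPM against 657, 652 and 714 CPM, nor did the chemokine receptor gene Cx3cr1, at 106 and 116 CPM against 104, 102 and 122 CPM. Ace, which encodes angiotensin-converting enzyme, read 32.3 and 32.8 CPM against 14.8, 12.4 and 17.4 CPM (-1.13 ± 0.22 SE, adjusted p = 0.221, edgeR), with every KO library at about the same low level. The integrin chain gene Itgal and the transcription factor gene Pou2f2 had log2 fold changes of -0.32 and -0.35. By cell, 43.0% and 49.3% of thinned Het members and 45.5%, 48.9% and 51.9% of thinned KO members held at least 2 of Nr4a1, Ace, Treml4, Spn, Adgre4 and Cx3cr1, and the groups overlap (difference of means 2.64 percentage points, exact permutation p = 0.50).

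**Figure D4:**
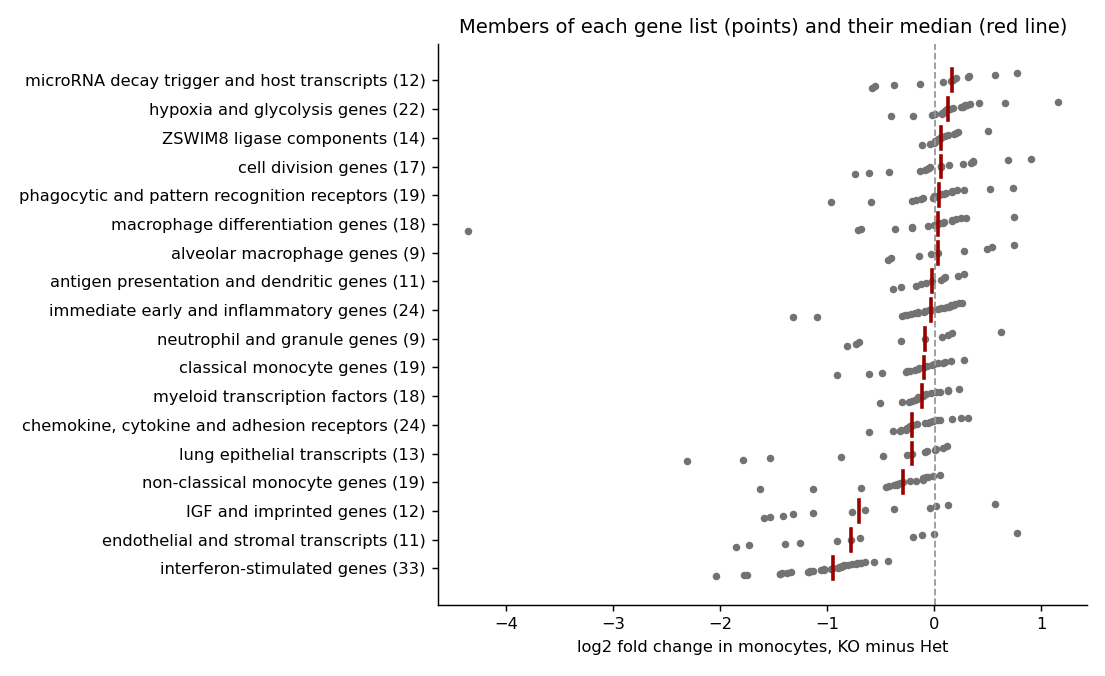
Log2 fold change in monocytes, KO minus Het (x axis), of each tested member (points) of the gene lists with at least 9 tested genes (y axis, number tested in brackets), with list medians as red lines and the median of all genes as a dashed line. Of the lists shown, the interferon-stimulated genes have the lowest median, -0.95, with all 33 points left of 0. The globin and red-cell list, not shown, had a median of -1.06 over 6 tested genes. The single point near -4.4 is Pf4, whose Het2 UMIs lie 95.8% in 1 barcode.

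Neutrophil and granule transcripts, of which 9 of 20 could be tested, had a median of -0.09, with 5 negative and 4 positive values. Without overlap, 3 (33.3%) were lower and 1 (11.1%) higher, against 12.8% and 11.7% of all genes tested. S100a8 and S100a9, the subunits of calprotectin, differed in how clearly the groups separated. S100a8 read 5006 and 3728 CPM against 2973, 4092 and 3482 CPM, which overlap. S100a9 read 1323 and 1117 CPM against 513, 646 and 1072 CPM (-0.71 ± 0.24 SE, adjusted p = 0.514, edgeR), with KO3 just below the Het pair. Mmp8, a collagenase of granules, read 343 and 261 CPM against 154, 203 and 183 CPM (-0.73 ± 0.15 SE, adjusted p = 0.236, edgeR). With the members carrying UMIs of other cell types left out, S100a9 (-0.91), Mmp8 (-0.77), the siderophore-binding gene Lcn2 (-1.19) and the cystatin gene Cstdc5 (-1.42) passed and were lower in KO monocytes, so 3 of the 9 list members were called there against the 0.0724% of all genes. Neutrophil genes did not enter the choice of the members left out. In haemoglobin-rich barcodes, which measure free RNA, the summed list was also lower in KO. It read 486 and 365 CPM in Het1 and Het2 against 162, 186 and 178 CPM in KO1, KO2 and KO3, without TMM scaling. How much free neutrophil RNA contributes to these calls was not tested. The summed level of 7 defining neutrophil markers was 139 and 167 CPM in Het members and 162, 145 and 160 CPM in KO members, which overlap. These markers include Asprv1, Il1r2, Csf3r and Stfa2, of which the rule allows at most 1 in a member. The selection therefore limits this sum, and it cannot show whether neutrophil RNA was equal in the groups. Few members held primary or secondary granule genes: 0.439% and 0.995% of thinned Het members and 0%, 0% and 1.09% of KO members had UMIs of at least 2, where 0 of 77 cells in KO1 allows up to 4.68% and 0 of 229 in KO2 up to 1.60% by the exact interval.

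The remaining genes called without the mixed members were Flt1, a VEGF receptor that monocytes use in chemotaxis, and Gm42418. Flt1 read 62.5 and 51.1 CPM in Het1 and Het2 against 28.4, 14.9 and 29.0 CPM among all members (-1.29 ± 0.24 SE, adjusted p = 0.221, edgeR) and reached -1.44 in the reduced set. Gm42418, a long noncoding RNA model that overlaps ribosomal RNA sequence and whose counts are uncertain for that reason, read 10201 and 10799 CPM against 6368, 6480 and 6767 CPM (-0.68 ± 0.11 SE) and -0.72 in the reduced set. Both were again called when members needed at least 4 rule genes.

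No macrophage differentiation gene passed the test. Of 18 tested, 10 had a positive and 8 a negative log2 fold change, with a median of 0.04. Apoe, a lipid carrier, read 4087 and 3113 CPM against 4676, 4312 and 3417 CPM, which overlap. Cd14, the lipopolysaccharide co-receptor, read 1799 and 1559 CPM against 1816, 1985 and 1858 CPM, Ctsb, a lysosomal protease, had a log2 fold change of -0.21, and Csf1r of -0.06. Fcgr1, the high-affinity IgG receptor, which is also interferon-inducible, read 264 and 243 CPM against 221, 132 and 124 CPM, in the KO1-intermediate order of the interferon genes (-0.72 ± 0.21 SE, adjusted p = 0.428, edgeR). Of 9 tested alveolar macrophage genes, none was without overlap, and the median was 0.03.

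Antigen presentation genes were read mostly from a few members. Cd74, the invariant chain, read 488 and 599 CPM in the Het libraries and 1117, 316 and 500 CPM in KO1, KO2 and KO3, and H2-Aa, H2-Ab1 and H2-Eb1, chains of MHC class II, were likewise highest in KO1 and lowest in KO2. Members with at least 2 of these 4 genes made up 4.39% and 4.98% of thinned Het members and 10.4%, 2.18% and 3.83% of thinned KO members (difference of means 0.786 percentage points, exact permutation p = 1.00). Summed dendritic markers, which include H2-Aa and H2-Ab1, stood at 293 and 575 CPM against 835, 132 and 322 CPM. The summed antigen presentation and dendritic list read 1193 and 1718 CPM in Het monocytes against 2747, 776 and 1277 CPM in KO monocytes, without TMM scaling. With the members holding UMIs of other cell types left out, which include those with at least 50 UMIs of this same list, it read 428 and 372 CPM against 515, 478 and 516 CPM, so that KO1 no longer lay above KO3 and KO2 lay above both Het libraries. Cd74 then had a log2 fold change of 0.51 and did not pass.

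Pattern recognition and phagocytic receptors had values in both directions. Of 19 tested, 10 had a positive and 9 a negative log2 fold change, and none passed. Without overlap, 3 (15.8%) were higher and 2 (10.53%) lower, near the 11.7% and 12.8% of all genes tested. Tlr7, which detects single-stranded RNA in endosomes, read 51.6 and 46.9 CPM against 14.8, 27.3 and 29.0 CPM (-0.96 ± 0.21 SE, adjusted p = 0.252, edgeR), and Tlr13, which detects bacterial ribosomal RNA, read 50.6 and 53.2 CPM against 32.0, 31.8 and 38.5 CPM. Tlr4, which detects lipopolysaccharide at the surface, ran the other way, at 27.3 and 18.8 CPM against 33.3, 29.3 and 36.9 CPM. Clec4n, a lectin receptor for fungal mannans also called Dectin-2, was higher in each KO library, at 108 and 136 CPM against 258, 199 and 162 CPM (0.73 ± 0.19 SE, adjusted p = 0.361, edgeR). Fcer1g, Fcgr3, Tlr2 and Cd14, which are more abundant, had log2 fold changes between -0.01 and 0.17.

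Of 24 chemokine, cytokine and adhesion receptor genes tested, 19 had a negative log2 fold change, the median was -0.21, and none passed. Without overlap, 9 (37.5%) were lower and 1 (4.17%) was higher, against 12.8% and 11.7% of all genes tested. Itgb2, the common chain of the leukocyte integrins, read 308 and 263 CPM against 179, 223 and 248 CPM (-0.38 ± 0.15 SE, adjusted p = 0.572, edgeR). Cd44, a hyaluronan receptor, had a log2 fold change of -0.24 and Ccr1, a receptor for inflammatory chemokines, of -0.27. Csf2rb, the shared signalling chain of the GM-CSF receptor, was the member higher in every KO library, at 254 and 225 CPM against 338, 279 and 281 CPM (0.31 ± 0.13 SE, adjusted p = 0.603, edgeR).

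Myeloid transcription factors had lower values in KO monocytes more often than higher ones. Of 18 tested, 13 had a negative log2 fold change and the median was -0.12. Without overlap, 9 (50%) were lower and 2 (11.1%) higher, against 12.8% and 11.7% of all genes tested, and none passed. Klf2, a factor of quiescent monocytes, read 231 and 295 CPM against 141, 201 and 204 CPM (-0.51 ± 0.17 SE, adjusted p = 0.501, edgeR). Irf8, a lineage factor of monocytes and dendritic cells, read 126 and 120.4 CPM against 108, 92.3 and 101 CPM. Cebpb, Zeb2 and the lineage-defining factor gene Spi1 (PU.1) had log2 fold changes of -0.15, -0.13 and -0.10. Runx1 was higher in each KO library, at 298 and 289 CPM against 381, 324 and 333 CPM, without passing (0.23 ± 0.12 SE, adjusted p = 0.709, edgeR).

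Immediate early and inflammatory genes, which also respond to tissue dissociation, had nearly equal summed levels in the groups. Of 24 tested, 11 had a positive and 13 a negative log2 fold change, with a median of -0.03, and their summed level was 16644 ± 806 CPM (SD, n = 2) in Het and 16707 ± 838 CPM (SD, n = 3) in KO monocytes. Il1b, the proinflammatory cytokine, read 3633 and 3642 CPM against 3894, 4538 and 3441 CPM. Junb, Cxcl2 and Dusp1 had log2 fold changes of -0.10, 0.15 and -0.28. The heat-shock gene Hspa1a read 38.2 and 27.6 CPM against 14.8, 16.4 and 14.8 CPM (-1.09 ± 0.23 SE, adjusted p = 0.237, edgeR).

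Among glycolytic and hypoxia-induced genes, none of which passed, several were highest in KO1. Of 22 tested, 19 had a positive log2 fold change, with a median of 0.13. Without overlap, 6 (27.3%) were higher and 2 (9.09%) lower, against 11.7% and 12.8% of all genes tested. Gapdh read 1296 and 1306 CPM against 1768, 1243 and 1176 CPM, so KO1 was above and the other KO libraries were below the Het pair. Bnip3, a mitophagy receptor induced by hypoxia, read 18.4 and 20.3 CPM against 57.9, 21.8 and 22.7 CPM. Cell division genes, which the rule had partly removed through Mki67 and Top2a, had a median of 0.06 over 17 tested genes, with 1 higher and 1 lower without overlap (5.88% each, against 11.7% and 12.8% of all genes tested).

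No transcript of the microRNA decay lists passed the test. All 14 genes on the list of the ligase and its partners could be tested, the median was 0.06 and no member was without overlap. Of 12 tested trigger and host transcripts, the median was 0.16. Oip5os1 (Cyrano), a long noncoding RNA that triggers decay of miR-7, read 49.6 and 52.1 CPM against 46.8, 37.7 and 35.9 CPM (-0.38 ± 0.16 SE, adjusted p = 0.606, edgeR). The microRNAs themselves are not measured in these libraries.

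Among single genes outside these groups, chosen as those of smallest p whose libraries do not overlap and whose higher group averaged at least 10 CPM, none of the higher ones passed. Txn2, mitochondrial thioredoxin, was the first, at 61.6 and 60.5 CPM in the Het libraries against 102, 91.3 and 93.3 CPM in the KO libraries (0.64 ± 0.13 SE, adjusted p = 0.229, edgeR). Ddx21, a nucleolar helicase, read 69.0 and 72.0 CPM against 94.9, 101 and 109.7 CPM (0.54 ± 0.13 SE). C3ar1, the receptor for complement fragment C3a, read 20.4 and 27.6 CPM against 74.0, 53.6 and 35.3 CPM (1.10 ± 0.28 SE, adjusted p = 0.361, edgeR). The lipid exporter gene Abca1 had a log2 fold change of 0.55, the mitochondrial protein gene C1qbp of 0.74, and the replication genes Rfc4 and Lig1 of 1.65 and 1.56 from at most 13.6 CPM in any library. Eif2s3x (0.60), which is X-linked, and Gm47283 (1.47), annotated on the Y chromosome, also belonged to this set, and sex differs between the groups in 2 of 3 KO embryos.

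The lower genes of the same rule, apart from Ccl5, Ddx58, Ifi204, Flt1 and Gm42418, were Samhd1, Helz2, 9930111J21Rik2, Retnla and Ctla2a, and none passed among all members. Samhd1, a deoxynucleotide hydrolase that restricts viruses, read 819 and 774 CPM against 542, 532 and 537 CPM (-0.57 ± 0.10 SE, adjusted p = 0.215, edgeR). It was equally low in KO1, KO2 and KO3, unlike Isg15. Helz2, a nuclear coactivator, read 49.6 and 64.7 CPM against 35.7, 24.3 and 24.8 CPM (-1.08 ± 0.19 SE). Ctla2a, a cysteine protease inhibitor, read 26.8 and 110.02 CPM against 6.16, 4.47 and 3.69 CPM, where 81.5% of the Het2 UMIs lay in 1 barcode. It passed with each gene's highest barcode left out (-2.50) and with at least 4 rule genes required (-2.37), alternatives of which the first was chosen after seeing the data. Retnla, a secreted factor of alternatively activated macrophages and airway cells, read 18.9 and 13.04 CPM against 2.47, 1.99 and 4.74 CPM, and Scgb1a1, a club-cell transcript that free RNA can carry, read 66.0 and 39.1 CPM against 35.7, 11.9 and 15.3 CPM.

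The difference between Het and KO monocytes was then set against that of C1q macrophages of the same libraries, with a genotype by class term that tests the difference between the 2 log2 fold changes. Of 9966 genes, 16 (0.161%) had such a term at an adjusted p under 0.05, 10 with a higher and 6 with a lower value in monocytes. In macrophages taken alone, 75 of 9844 genes (0.762%) differed between Het and KO, 6 higher and 69 lower. Of 32 interferon-stimulated genes measured in both classes, all 32 had a log2 fold change closer to 0 in monocytes, and 3 of them, Rsad2, Xaf1 and Oasl2, had a term past the threshold. The rest of the list did not pass, and comparisons within it share the same libraries. The 2 classes were also chosen by opposite cuts on the monocyte genes, at least 3 against at most 2. Of these genes, Ms4a4c and Ly6c2 have library levels that follow the interferon order. How much of the difference between the classes comes from this choice was not tested.

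Rsad2 had the clearest term among these. In monocytes KO1 was the highest library, at 130.5 CPM against 77.2 and 63.3 CPM in Het1 and Het2, without TMM scaling. In macrophages KO1 read 8.47 CPM, near KO2 (3.53 CPM) and KO3 (5.62 CPM), against 98.5 and 46.5 CPM in Het1 and Het2. The log2 fold change was -0.65 in monocytes and -3.70 in macrophages, a difference of 3.08 ± 0.43 SE (adjusted p = 0.00922, edgeR). Xaf1, an interferon-induced apoptosis factor, differed by 1.64 ± 0.25 (-0.57 in monocytes, -2.10 in macrophages, adjusted p = 0.0108, edgeR), and Oasl2, an oligoadenylate synthetase-like protein, by 1.18 ± 0.20 (adjusted p = 0.0315, edgeR). Ifi211, of the Ifi200 family, and Ly6e, an interferon-induced surface protein, had terms of 1.32 and 0.98.

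S100a8 (1.13 ± 0.16 SE, adjusted p = 0.00922, edgeR) and the cystatin gene Cstdc4 (2.49 ± 0.36, adjusted p = 0.00922, edgeR) also had higher values in monocytes, where S100a8 stayed between 2887 and 4804 CPM. In macrophages S100a8 read 91.6 and 60.3 CPM against 26.6, 35.6 and 24.5 CPM, a level at which RNA from neutrophils and monocytes can contribute, and that contribution was not tested. The terms of Rsad2, S100a8, Ifi211, Cstdc4, Xaf1, Ly6e and Oasl2 were past the threshold with the mixed members left out and with each gene's highest barcode left out. They were less steady to single libraries: the Rsad2 term had an adjusted p of 0.0588 without KO1 (0.00522 to 0.0588 over libraries left out), the S100a8 term 0.141 without Het1 and 0.0776 without KO3, the Xaf1 term 0.0588 without Het1 and 0.122 without KO3, and the Oasl2 term 0.0527 to 0.191 whichever library was left out (edgeR). The Ly6e term had 0.176, 0.111 and 0.123 without Het1, KO2 and KO3, the Ifi211 term 0.0588, 0.0525 and 0.121 without the same libraries, and the Cstdc4 term 0.0957 and 0.135 without Het1 and KO3 (edgeR). Mcpt8, Ppbp, Myl7, Ctla2a, Myl9 and Hspb1 also had terms, and those of Ppbp, Myl9 and Hspb1, platelet and muscle transcripts, were lost or could not be tested under both of these settings.

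**Figure D5:**
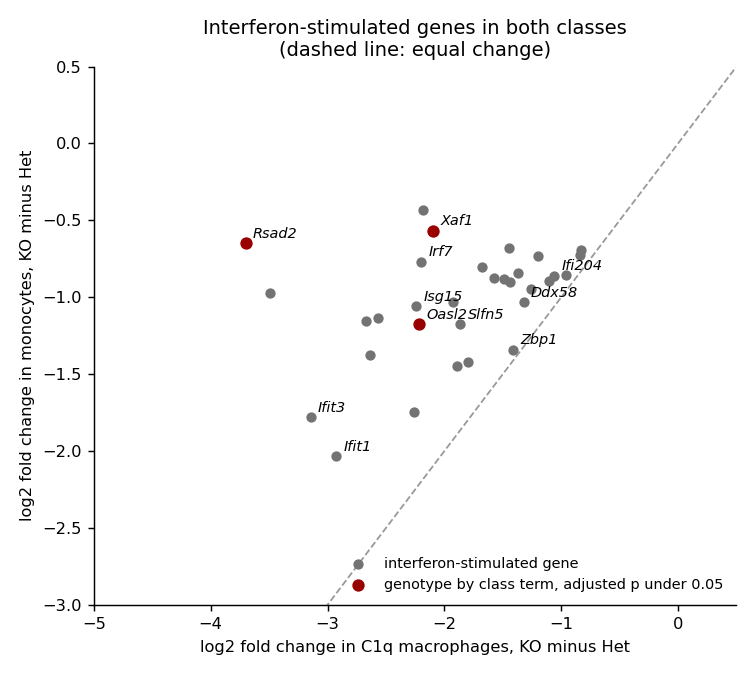
Log2 fold change, KO minus Het, of 32 interferon-stimulated genes in monocytes (y axis) against C1q macrophages (x axis), with genes whose genotype by class term passed in red and equal change as a dashed line. All 32 points lie above the line, and Rsad2, Xaf1 and Oasl2 passed. The classes were chosen by opposite cuts on the monocyte genes, whose part in this difference was not tested.

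Against neutrophils, 10 of 8404 genes (0.119%) had a genotype by class term, 3 higher and 7 lower in monocytes. Ier3, an immediate early survival gene, read 442 and 494 CPM in Het monocytes and 645, 518 and 499.7 CPM in KO monocytes, but 548 and 495 CPM against 382, 377 and 303 CPM in neutrophils (difference 0.91 ± 0.16 SE, adjusted p = 0.0203, edgeR). Stap1, a signalling adaptor downstream of the CSF1 receptor, and the splicing factor gene Cwc25 had terms of 1.15 and 0.94. Ngp, a neutrophil granule gene, and Ss18l2 were next, at 4.31 and 1.47, and did not pass. The 7 lower terms, among them Ctla2a, Col1a1, Nrgn, Pf4 and Col3a1, included platelet, stromal and muscle transcripts, and a single Het2 barcode held 94.7% of the Col1a1, 93.0% of the Col3a1 and 89.8% of the Nrgn UMIs of that library. The Ier3 term was lost without Het1, Het2 or KO3 (adjusted p = 0.314, 0.633 and 0.119, edgeR). With the mixed members left out, no gene had a term past the threshold, and 456 had an unadjusted p under 0.05. With each gene's highest barcode left out, 2 genes did. No interferon-stimulated gene named here had a term against neutrophils, where Isg15 read 144 and 122.5 CPM in Het1 and Het2, 239 CPM in KO1, and 28.1 and 39.5 CPM in KO2 and KO3, the order seen in monocytes.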

How the data were processed

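Raw UMI counts per gene and barcode, deposited by the authors as 1 matrix per embryo, were made with Cell Ranger 4.0.0 on mm10, per the file headers and the submitters' processing notes. Nothing else was stated about filters in the sources used here. All 32285 genes were read, and gene positions come from GENCODE M21, which matched 32235 of the gene identifiers. The monocyte rule was applied to each library, and members' counts were summed per library and tested with edgeR 4.0.16 (TMM scaling, low-count filter by group, quasi-likelihood test, Benjamini-Hochberg adjustment over all genes tested). The test was checked on simulated counts. Shares of cells were compared by exact permutation over libraries. Doublets were not removed in the main result, and a scanpy 1.11.5 scrublet score was used as an alternative. The genotype by class terms used sums of both classes with library as a block. DESeq2 1.42.0, other scalings, filters, stricter rules, equal cell numbers, sex and left-out libraries were alternatives, and 3 were added after seeing the data. Named genes were those past the threshold without overlap (up to 15 a direction), filled with those of smallest p to 10 a direction, the 4 most abundant of each list, the 5 of smallest p in each direction of each interaction, and others chosen after their values were seen. The members and the 22 gene lists (411 gene entries, 5 symbols not in the files) were chosen with earlier results of these data known. Each replicate is 1 embryo. Confidence intervals are exact binomial at 95% and cover counting error only. Some list members are counted in the lists but not reported here by name.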

Additional observations from a re-analysis of the deposited data

Results flagged for a closer look

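The following genes changed differently between Het and KO in monocytes than in another cell class, by the genotype by class term of edgeR at an adjusted p under 0.05. Each value is the log2 fold change in monocytes minus that in the other class. Against C1q macrophages the values were 9.63 for Mcpt8, 3.08 for Rsad2, 1.13 for S100a8, 1.32 for Ifi211, 2.49 for Cstdc4, 1.64 for Xaf1, 0.98 for Ly6e, 1.18 for Oasl2, 2.40 for Lig1 and 1.00 for Crip1. They were -6.87 for Ppbp, -5.67 for Myl7, -3.73 for Ctla2a, -4.63 for Myl9, -3.95 for Hspb1 and -2.72 for Igf2. Against neutrophils they were 0.91 for Ier3, 1.15 for Stap1, 0.94 for Cwc25, -3.64 for Ctla2a, -3.44 for Col1a1, -4.99 for Nrgn, -4.04 for Pf4, -3.90 for Col3a1, -5.30 for Dcn and -4.85 for Myl7.

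For the platelet, stromal and muscle transcripts in these sets, single barcodes held most UMIs, such as 95.8% of Pf4 and 94.4% of Hspb1 in Het2 and 89.2% of Myl7 in Het1. The Mcpt8 term rests on 127 UMIs in Het1 macrophages, where 1 barcode held 97.8% of the UMIs of the basophil and mast cell list, and it could not be tested with the mixed members or the highest barcodes left out. Under those settings the Igf2 term became -0.01 and -0.03 (adjusted p = 1 in both, edgeR), and the Ctla2a term against macrophages lost its call with the mixed members left out (adjusted p = 0.110, edgeR; 8.25e-06 to 0.110 over its alternatives).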

How the results depend on the processing

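The number of genes called in monocytes, 1, became 9 with DESeq2, 268 with no low-count filter, 3 with at least 4 of the 5 monocyte genes, 27 with no UMI of any excluded macrophage or neutrophil gene, 6 with the rule applied after thinning to 4000 UMIs, 44 with equal numbers of monocytes, 6 with members holding UMIs of other cell types left out, 2 with each gene's highest barcode left out, and 1 to 109 with 1 library left out. It stayed at 1 with library-size scaling, at least 10 UMIs, stricter barcode filters, doublets removed, haemoglobin-rich members left out and sex as a covariate. The replicate block gave 79 calls. Deviations from the group means correlated at 0.0157 and 0.0343 between same-numbered libraries. With 2 Het libraries these deviations are mirror images of each other, so the correlations cannot decide whether the numbers pair the embryos. Terms against macrophages numbered 8 to 26 with 1 library left out, and terms against neutrophils 0 to 25, 0 without the members holding other cell types' UMIs and 2 without the highest barcodes. The cause of these changes was not tested. The difference in monocyte share turned from -0.129 to 0.563 percentage points among barcodes with a Ptprc UMI and ran from -1.25 to 0.931 with 1 library left out. For granule genes it turned from -0.353 to 0.606 at 2000 UMIs and 0.261 unthinned, for non-classical genes from 2.64 to -2.40 at 2000 UMIs, -0.416 unthinned, -5.17 with at least 4 rule genes and -0.495 to 5.78 with 1 library left out, and for MHC class II genes from 0.786 to between -1.68 and 2.43. The mean interferon share was lower in KO under each alternative in depth, rule and library left out. With at least 4 rule genes, however, the groups overlapped, with KO1 at 100% against 98.995% and 99.4% in Het1 and Het2 (exact permutation p = 0.40). The H19 log2 fold change turned from -0.58 to 1.98 with the rule applied after thinning. Of 2554 alternative values of named genes, 2355 stayed on the same side of the threshold, 198 crossed it in the same direction and 1 changed sign and passed it. Changes of sign where neither value passed are counted in the 2355, so these counts do not measure how steady the directions were. Fcer1g kept its sign in 11 of 20 alternatives and H2-Eb1 in 11 of 19, whereas Isg15 kept it in 20 of 20. With 2 and 3 libraries, shares cannot reach p under 0.10, and KO1 rests on 83 cells.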
